A study of Sus scrofa with 14 samples.

Results

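In developing pig forebrain and cortex, 803 circular RNAs (circRNAs) had library reads that add up to the listed total and at least 20 reads. Of these, 419 (52.2%) were at their highest level in the cortex at embryonic day (E) 60, and these 419 are described here. They were chosen on their measured levels. In the table of the cortex series, the reads of the 6 libraries had to add up to the listed total, which was true of 4997 of 5585 lines, the total had to reach 20 reads, and the E60 level had to be the highest of the 6. The level is the number of reads over the backsplice junction per M reads of the library (RPM, where M stands for 1e+06). The other 384 circRNAs that met the first conditions peaked in E23 forebrain (54) or in cortex at E42 (239), E80 (29), E100 (34) or E115 (28).

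The series holds 14 libraries of ribosomal-RNA-depleted total RNA from embryonic pig brain, 1 library for each group. The groups are E60 cortex, E23 forebrain, cortex at 4 further stages (E42, E80, E100 and E115), and, each at E115 and at E60, the cerebellum, hippocampus, brain stem and basal ganglia. Neither breed, sex, genotype nor treatment is given in the labels, nor whether a library came from 1 animal or several. With 1 library for a group no difference between stages has a replicate check, so intervals below are 95% intervals for counting error alone, and "beyond counting error" means that the interval of a ratio lies above 1. Fewer cells of a type and less RNA per cell cannot be told apart in such tissue samples.

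In a circRNA the end of an exon is spliced back to the start of the same or an earlier exon, which closes the RNA into a ring. The ring has no ends and is often more stable than the linear mRNA of the same gene, its host. CircRNAs are abundant in mammalian brain, and many hosts encode synaptic, cytoskeletal or chromatin proteins. In cortical development, progenitors divide and give rise to neurons that migrate, extend axons and form synapses. The roles given for host genes below are those of their human and mouse counterparts.

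Library totals in the cortex series lay between 21.4 and 58.8 M reads, and the E60 library had the lowest total and the highest summed circRNA level, 810 RPM. The summed level of all circRNAs was 284, 643, 810, 304, 271 and 216 RPM in time order. How a peak at E60 is counted depends on this difference. When each library was scaled to its own circRNA reads, 184 of the 803 circRNAs peaked at E60, all 184 among the 419. With TMM factors, computed from the circRNA counts themselves, 212 peaked at E60, again all among the 419. The tissue labels could be checked on few genes, since 6 of 63 marker genes occur as hosts. In the cortex table FLT1, a marker of blood vessels, had a host FPKM (fragments per kilobase and M reads) of 3.26 in E23 forebrain and of 3.69, 1.25, 7.81, 15.2 and 14.3 in the cortex libraries in time order, lowest at E60.

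The host FPKM columns headed hippocampus and cortex in the regions table went against their headings. Over 1446 hosts listed in both tables, log2(FPKM + 1) in the regions table under the headings hippocampus E115 and E60 correlated with the cortex E115 and E60 values of the cortex table at r = 0.973 and 0.960, whereas the columns headed cortex reached r = 0.718 and 0.699 (across genes, which are not replicates). The cortex junction reads were not affected in this way, since all 2341 circRNAs that add up in both tables had the same cortex E115 and E60 reads in each. Junction reads of the other regions stand in the regions table only, so their headings could not be checked like this. Host FPKM of the regions table is therefore used below only in the comparison of E115 with E60, whose counts of calls are given with and without the columns headed hippocampus. PROX1, a marker of the hippocampus, had 1.62 and 1.75 FPKM under hippocampus at E115 and E60, but 21.9 and 15.2 FPKM under basal ganglia. By this single marker the basal ganglia headings are also in doubt. Leaving out the columns headed hippocampus does not settle that.

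The 419 circRNAs summed to 396 RPM (388 to 405) in E60 cortex. Their sums were 74.3, 208, 396, 91.8, 85.1 and 59.3 RPM in time order, and those of the other 384 circRNAs were 122, 236, 154, 123, 116 and 105 RPM. The rule fixes the direction of these differences, so they are a description. The 419 circRNAs made up 48.97% (48.2 to 49.7, exact binomial) of the circRNA reads at E60, and between 26.2% and 32.3% in each of the other 5 libraries. The summed level at E60 was 1.91 times that at E42 (1.85 to 1.98) and 4.32 times that at E80 (4.13 to 4.52). The distance to E80 depends on the scale: the members' median log2 ratios were 0.92 over E42 and 2.15 over E80 per library reads, and 0.59 and 0.74 per circRNA reads.

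The peak of a single circRNA was mostly shallow. E60 over the next highest stage had a median ratio of 1.72, with quartiles of 1.36 and 2.49 and a range from 1.01 to 13.1. The next highest stage was E42 for 287 circRNAs, E100 for 51, E80 for 41, E23 for 26 and E115 for 14. E60 exceeded that stage beyond counting error for 116 of 419, and for 62 of the 142 with at least 50 reads. The same reads chose E60 as the highest stage, so these intervals lean towards E60. They were not corrected for the number of circRNAs, and the counts are a description and no test. At least a 2-fold margin was present for 151, at least a 4-fold margin for 32, and a margin under 1.1-fold for 29. Counts were low, with a median of 35 reads over the 6 libraries and of 12 reads at E60. With each library scaled to its circRNA reads, 25 of the 184 circRNAs peaking at E60 exceeded the next stage beyond counting error.

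**Figure D1:**
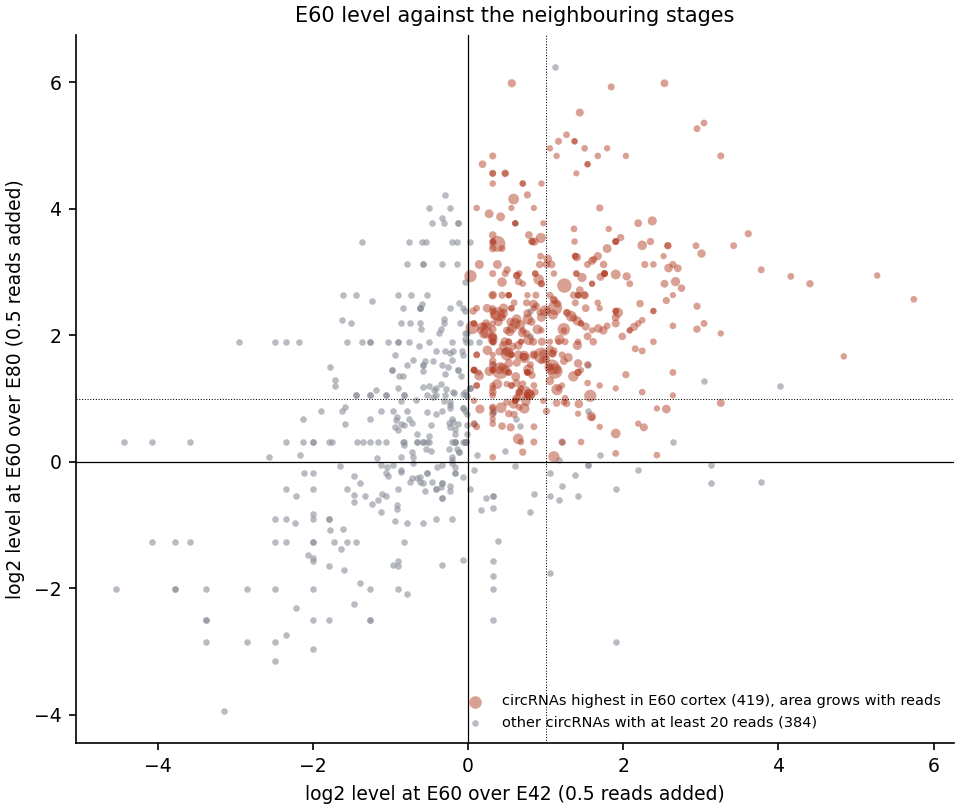
Each point is a circRNA with at least 20 reads, placed by its log2 level at E60 over E42 (x axis) and over E80 (y axis), with 0.5 reads added to each count; red points are the 419 circRNAs highest in E60 cortex, grey points the other 384, and dotted lines mark 2-fold. The red points have median ratios of 1.90 over E42 and 4.44 over E80, and 174 of them lie at least 2-fold above both neighbours.

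Among the circRNAs with most reads, 2 shapes occurred, a plateau over E42 and E60 and a rise to E60 alone. The circRNA of CSPP1, a centrosome and cilium protein, spans 9431 bp at chr4:73740572-73750002 (positions here are on Sscrofa10.2). Its level was 2.18 RPM in E23 forebrain and 7.98, 10.6, 3.91, 4.64 and 2.56 RPM in the 5 cortex libraries in time order. Thus E60 stood 1.33-fold (1.102 to 1.62) above E42. The HDAC2 circRNA, from a histone deacetylase gene, spans 283 bp at chr1:89940534-89940816 and had the highest E60 level of all, at 2.36, 11.2, 14.5, 1.31, 1.05 and 0.167 RPM in the same order. It remained near its peak at E42, with an E60 over E42 ratio of 1.30 (1.11 to 1.53), and 9 reads were left at E115. The PTGES3 circRNA, whose host encodes a co-chaperone, had 1.84, 6.29, 8.22, 1.61, 0.783 and 0.556 RPM. It shared the plateau, at 1.31-fold (1.05 to 1.62) over E42. NAA15, the auxiliary subunit of an N-terminal acetyltransferase, gave 1.21, 5.58, 5.79, 1.31, 0.433 and 0.167 RPM. LRCH1, a leucine-rich repeat protein, gave 0.578, 4.35, 4.44, 0.563, 0.659 and 0.315 RPM. For these last 2 circRNAs E60 was within counting error of E42, with ratios of 1.04 (0.811 to 1.33) and 1.02 (0.770 to 1.35).

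Other abundant circRNAs stood about 2-fold above E42. The RIMS2 circRNA, from an active-zone scaffold gene, spans 66065 bp at chr4:35844936-35911000 and had 0.391, 5.21, 10.04, 3.12, 4.25 and 2.96 RPM. E60 was 1.93-fold (1.55 to 2.40) above E42, and E100 lay above E80. A pair of circRNAs from TLK1, a kinase of chromatin assembly, end at the same position on chromosome 15 and start at 86639052 and 86622619. The first had 3.03, 3.56, 7.75, 2.85, 2.29 and 1.78 RPM and the second 2.23, 3.52, 7.47, 2.63, 2.64 and 1.56 RPM. Both stood apart from E42 beyond counting error, at 2.18-fold (1.68 to 2.83) and 2.12-fold (1.63 to 2.77). The unnamed host ENSSSCG00000014268 gave 2.12, 3.86, 8.41, 1.54, 1.38 and 1.07 RPM from chr2:139227898-139244383, a 2.18-fold (1.70 to 2.80) margin. MORC3, an ATPase of nuclear bodies, gave 0.850, 2.47, 5.84, 1.35, 0.577 and 0.574 RPM, a 2.36-fold (1.74 to 3.23) margin. A circRNA of 328 bp at chr7:69988389-69988716 with no listed host had 0.935, 4.53, 10.7, 1.54, 1.57 and 0.889 RPM and a margin of 2.37-fold (1.89 to 2.98). It is 1 of 15 members with no listed host, while 379 have 1 host and 25 have several.

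The remaining 4 of the 15 circRNAs with most reads had E60 levels between 2.76 and 4.58 RPM. ZNF292, a zinc finger protein, had 1.51, 3.22, 4.58, 1.39, 1.15 and 1.15 RPM, and E60 exceeded E42 1.42-fold (1.05 to 1.92). RIMS1, the paralog of RIMS2, had 0.0170, 1.09, 3.27, 1.58, 1.77 and 1.30 RPM. With 1 read in E23 forebrain, its next highest stage was E100, 1.84-fold (1.33 to 2.56) below E60. ZMYM4, a zinc finger protein, had 0.289, 2.81, 3.32, 0.789, 0.948 and 0.796 RPM, within counting error of E42 at 1.18-fold (0.841 to 1.65). PRKAR1A, a regulatory subunit of protein kinase A, had 0.952, 1.24, 2.76, 1.24, 0.495 and 0.315 RPM, with E80 and E42 close to each other and E60 2.22-fold (1.43 to 3.52) above E80. Of these 15 circRNAs, HDAC2, ENSSSCG00000014268, the hostless one, PTGES3, ZNF292 and MORC3 still peaked at E60 when libraries were scaled to their circRNA reads.

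**Figure D2:**
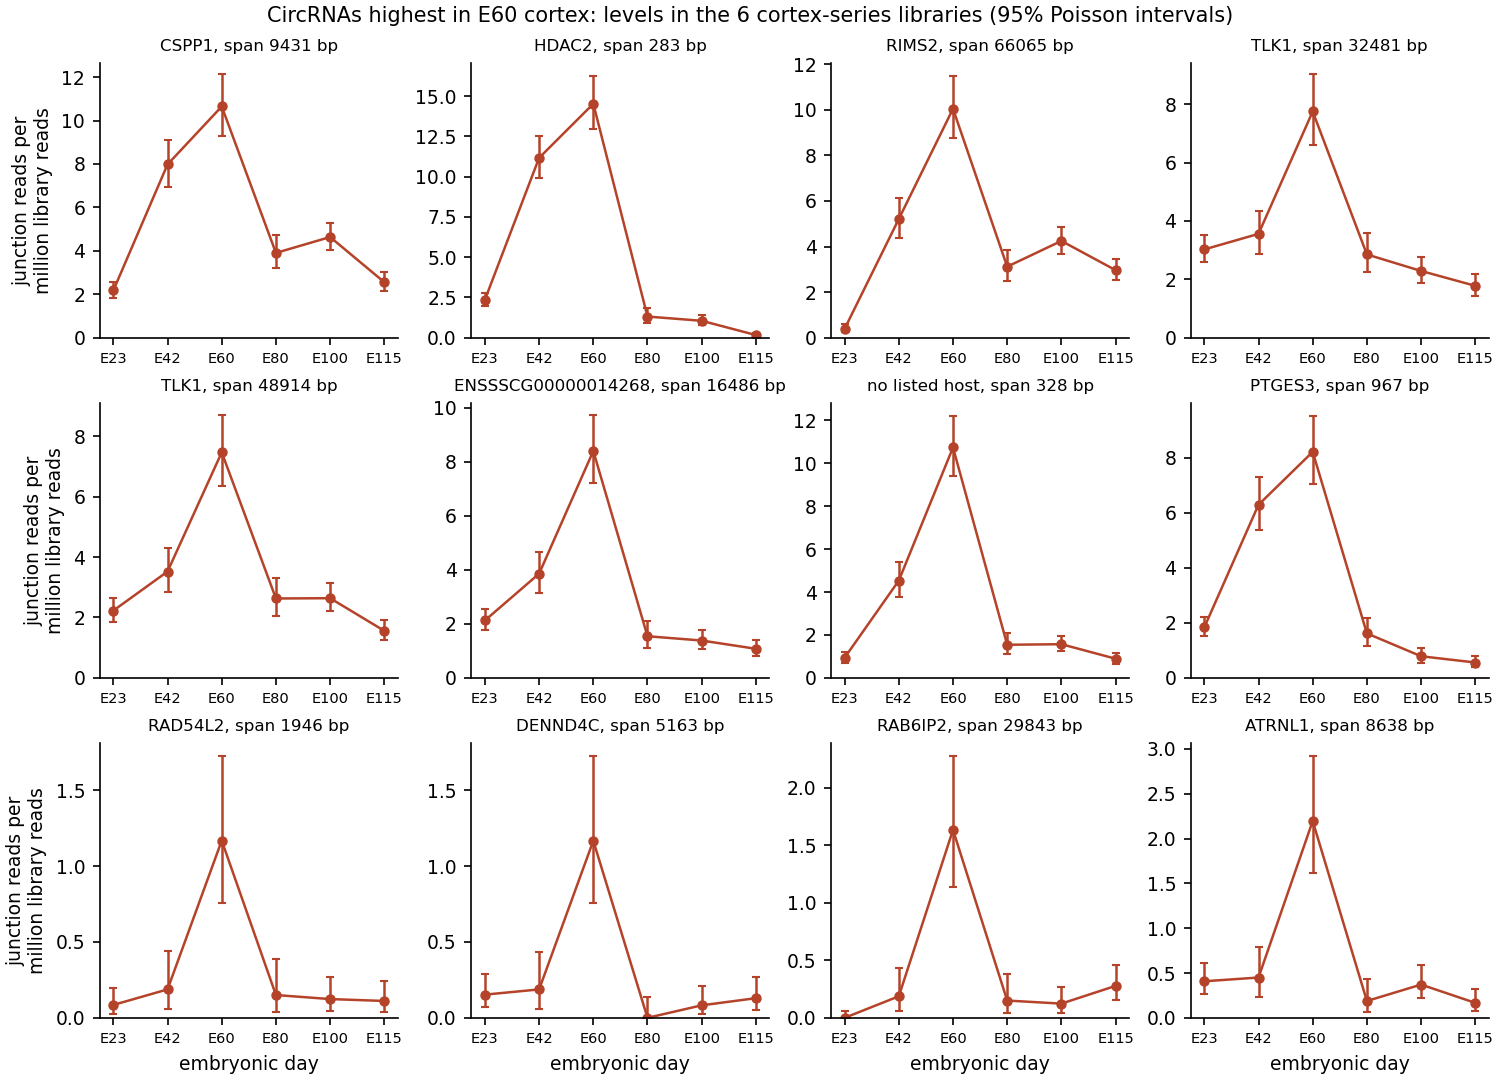
Junction reads per M library reads (y axis, from 0, its own scale in each panel) are plotted against embryonic day for 12 circRNAs highest in E60 cortex, with 95% Poisson intervals; the first point is forebrain and the others cortex, 1 library each. The upper 8 panels are the circRNAs with most reads, several of which were close to their peak at E42, and the lower 4 are among the sharpest, with E60 between 4.88 and 6.23 times the next stage.

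The sharpest peaks among circRNAs with at least 50 reads lay on genes of several kinds. Their ratios picked them, so ratios and intervals here are a description. RAD54L2, an SNF2-family helicase, gave 5, 5, 25, 4, 6 and 6 reads, and DENND4C, an exchange factor for Rab GTPases, gave 9, 5, 25, 0, 4 and 7 reads. Both stood at 6.23-fold over E42, with wide intervals (2.34 to 20.8) because each ratio rests on 25 and 5 reads. RAB6IP2, an active-zone scaffold also known as ERC1 or ELKS, gave 0, 5, 35, 4, 6 and 15 reads. Its next highest stage was E115, 5.88-fold (3.13 to 11.6) below E60. ATRNL1, an attractin-like membrane protein, reached 2.19 RPM at E60, 4.88-fold (2.55 to 10.1) over E42. RMND1, a protein of mitochondrial translation, reached 1.21 RPM, 4.20-fold (2.20 to 8.25) over E23. LARP4B, a La-related RNA-binding protein, reached 2.19 RPM, 3.91-fold (2.15 to 7.52) over E42. These 6 also peaked at E60 when libraries were scaled to their circRNA reads.

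At the limit of the rule the choice rests on few reads. Just inside it were circRNAs of NEK10 and HOMER1, each 1.01-fold above E100. NEK10, a kinase, and HOMER1, a postsynaptic scaffold, both had 4 reads at E60 and 9 at E100, or 0.187 and 0.185 RPM. Just outside were circRNAs of CCDC90B, ATL1 and MMP16, each with 4 reads at E60 and 5 at E42, or 0.187 RPM at both stages and a ratio of 0.997. Altogether 38 of the other 384 circRNAs had an E60 level over 0.9 times their peak.

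The members came from 302 single hosts, of which 241 gave 1 member, 48 gave 2, 11 gave 3, FAM188A gave 4 and RIMS1 gave 5. The RIMS1 circRNAs share ends. Those at 33144 and 6529 bp start together at chr1:58484449, and those ending at 58490977 start at 58484449, 58468249 and 58460995. Apart from the abundant one, E60 levels of the RIMS1 circRNAs were 0.747, 0.701, 0.701 and 0.280 RPM, and each had 0 to 2 reads in E23 forebrain. The 4 circRNAs of FAM188A, a deubiquitinase of the MINDY family, all start at chr10:50688302 and had E60 levels of 2.19, 1.17, 0.374 and 0.234 RPM. Only the first of these stood above its next stage beyond counting error, at 1.72-fold (1.08 to 2.76). Overall 84 of 419 members shared a start or an end with another member, so they are not separate observations of their locus. Among the 122 hosts with at least 2 circRNAs of 20 reads, all circRNAs peaked at E60 for 48 hosts, some for 44 and none for 30.

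The circRNAs highest at E60 spanned less of the genome than the rest, a feature that the rule did not use. Their median distance between junction ends was 6886 bp, against 19414.5 bp for the other 384. Medians were 25260.5, 14560, 6886, 23354, 46452 and 43737 bp for circRNAs peaking at E23, E42, E60, E80, E100 and E115. Of the 73 circRNAs that span under 1 kb 79.5% peaked at E60, against 63.9% of 169 between 1 and 5 kb, 55.7% of 271 between 5 and 20 kb, 47.9% of 142 between 20 and 40 kb, and 22.97% of 148 from 40 kb up. The span includes introns and is not the length of the ring. No test was made, because circRNAs of 1 host and of 1 library are not independent.

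The libraries as wholes showed the same gradient, but this is no separate support. Members gave 48.97% of the circRNA reads in E60 cortex. Of its 2404 reads under 1 kb, HDAC2, the hostless circRNA on chromosome 7 and PTGES3 gave 311, 230 and 176. Reads of circRNAs under 1 kb made up 13.9% (13.4 to 14.4) of all circRNA reads in E60 cortex and 8.44%, 10.4%, 7.34%, 6.33% and 5.79% in E23 forebrain and in cortex at E42, E80, E100 and E115. In the table of regions the same cortex E60 library stood at 13.04% (12.5 to 13.6). There the basal ganglia at E60 stood at 9.23%, the brain stem at 7.92%, the cerebellum at 7.18% and the hippocampus at 5.90%. Spans of 40 kb and more had 12.6% of the reads in E60 cortex and 34.3% in E115 cortex. Within the 44 hosts that gave both kinds, the median span of the members was the shorter one in 28 and the longer one in 16.

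**Figure D3:**
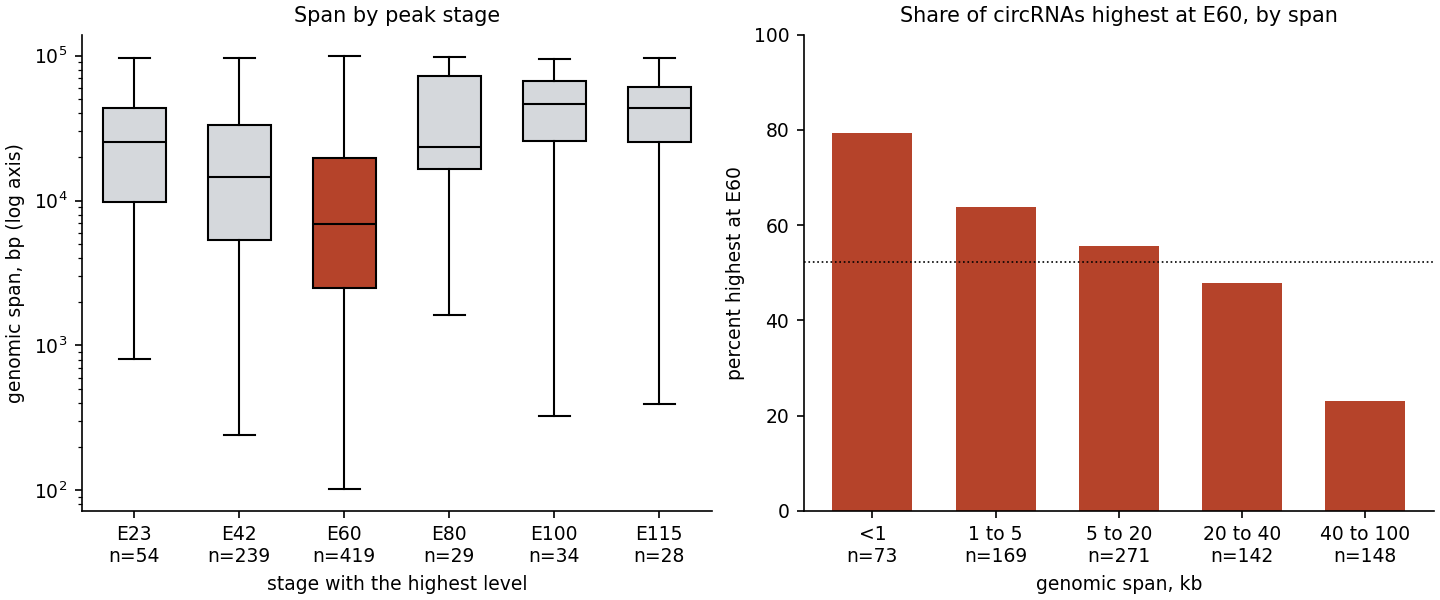
Left, genomic span between junction ends (y axis, log scale) for circRNAs grouped by the stage of their highest level; boxes show the quartiles, lines the medians and whiskers the full range, and E60 is in red. Right, the percentage of circRNAs highest at E60 (y axis, from 0) in 5 classes of span (x axis), which declined in order of span between 79.5% and 22.97%; the dotted line is the percentage over all 803.

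Host gene levels at E60 did not in general peak with the circRNAs. The host FPKM was highest at E60 for 78 of the 379 members with a single host (20.6%), against 20 of 334 other circRNAs (5.99%) and 5.37% of all 2309 listed hosts. Counting each host once, it was highest at E60 for 48 of 302 (15.9%). E42 was the most frequent peak of a member's host, for 161 of 379 (42.5%). It was also the most frequent for hosts of the other circRNAs, with 165 of 334 (49.4%), and for all listed hosts (37.5%). The median host log2 ratio, on the log2(FPKM + 1) scale, was −0.28 for E60 over E42 and 0.24 for E60 over E80, against −0.59 and 0.16 for hosts of the other circRNAs. Host FPKM was lower at E60 than at E42 for 257 of 379 members (67.8%), less often than for the other circRNAs, with 282 of 334 (84.4%). It was at least 2-fold higher at E60 than at both neighbours for 5 of 379 members and 0 of 334 others.

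The difference between circRNA and host is given as a description, since it contains the values that chose the members. The log2 change of the circRNA minus that of the host had a median of 1.29 between E60 and E42 and of 1.87 between E60 and E80. It was above 0 for 359 and 362 of 379 members. For the other 334 circRNAs the medians were −0.018 and 0.28.

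**Figure D4:**
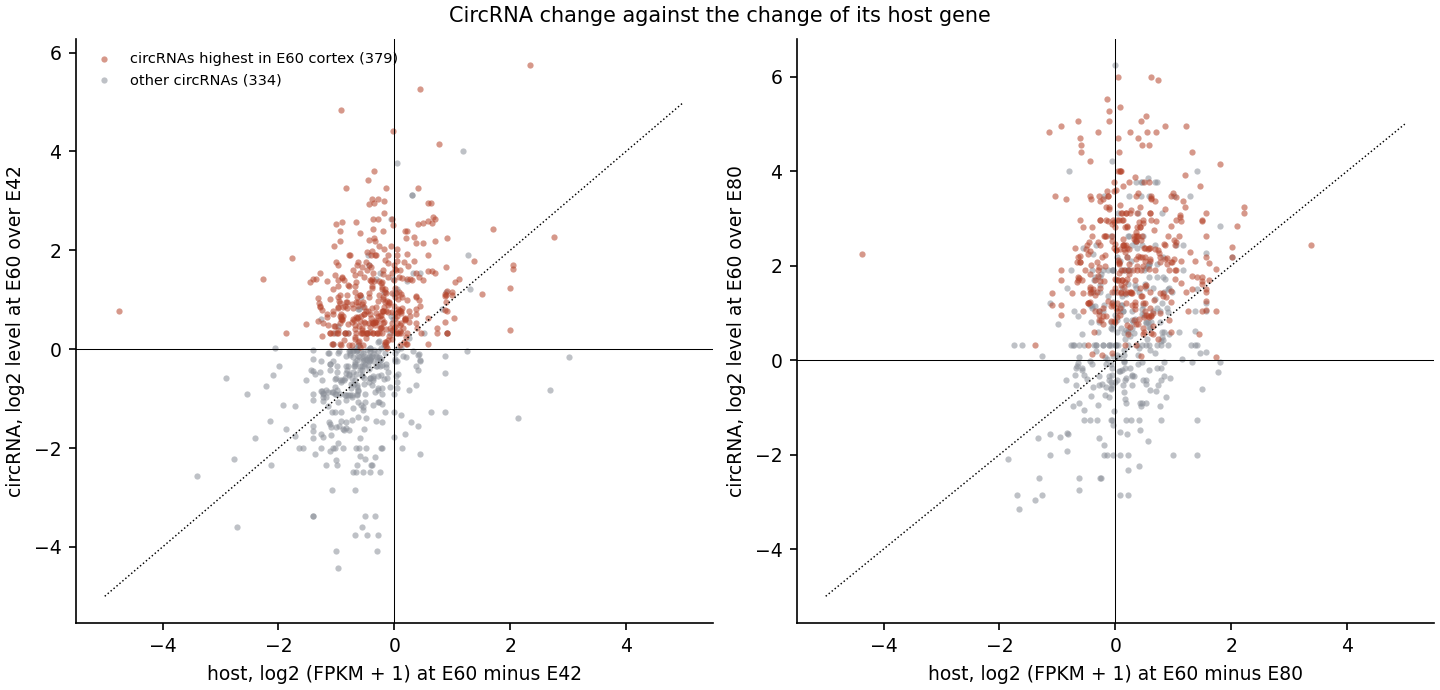
Each point is a circRNA with a single host, placed by the change of host log2(FPKM + 1) (x axis) and of the circRNA's log2 level (y axis) between E60 and E42 (left) and between E60 and E80 (right); red marks the 379 members and grey the other 334, and the dotted line marks equal change. Of the red points 359 (left) and 362 (right) lie above the line.

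Some hosts did peak with their circRNA. TLK1 host FPKM was 36.8, 67.8, 125, 41.6, 46.2 and 34.96 in time order, highest at E60 as the pair of circRNAs above were. Another TLK1 member, which starts at 86637917 and shares their end, also peaked at E60, and 2 TLK1 circRNAs, with 84 and 24 reads, peaked at E42. RIMS2 host FPKM was 2.97, 18.4, 35.1, 11.8, 31.98 and 21.6 in the same order, also highest at E60. The 5 circRNAs whose hosts were highest at E60 relative to the mean of E42 and E80 lay on ENSSSCG00000014268, MLIP, EPHA3 and, with 2 circRNAs, ENSSSCG00000030504. ENSSSCG00000014268 had 38.2, 65.8, 189, 17.3, 31.4 and 21.5 FPKM. EPHA3, an ephrin receptor of axon guidance, had 26.04, 103, 192, 40.6, 15.8 and 7.49 FPKM, and its circRNA of 661 bp had 3, 13, 34, 4, 7 and 0 reads. Both hosts were highest at E60. MLIP had 2.34, 1.1, 13.3, 4.21, 6.77 and 7.35 FPKM, and ENSSSCG00000030504 had 17.96, 18.7, 80.2, 38.5, 97.5 and 61.8 FPKM, highest at E100.

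Other hosts were below their E42 level at E60 while their circRNA was highest. HDAC2 host FPKM was 176, 294, 149.96, 72.4, 59.0 and 42.2, a log2 change of −0.97 for E60 over E42, where the circRNA was 1.30-fold higher. The 5 circRNAs whose hosts were lowest at E60 relative to the mean of E42 and E80 lay on RNF138, EIF5B, TPR and TEX9. RNF138, a ubiquitin ligase of DNA repair, is listed at 77.0, 26.1, 0, 19.6, 20.7 and 6.71 FPKM. The value of 0 at E60 may be a failed estimate and gives no fold, and the RNF138 circRNA had 59 reads there. EIF5B, a translation initiation factor with 2 members, had 14.3, 9.51, 4.16, 8.87, 9.76 and 9.24 FPKM. TPR, a nuclear pore protein, had 35.2, 33.1, 12.3, 18.7, 19.4 and 17.5 FPKM, and TEX9 had 15.3, 16.9, 8.21, 16.7, 3.78 and 1.93 FPKM. The circRNAs of TPR and TEX9 had 7 and 5 reads at E60, each within counting error of the next stage.

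By the role of the host, members were spread over all 9 lists of genes examined, and the background share of peaks at E60 was 52.2%. Of synapse and active zone circRNAs 11 of 18 peaked at E60 (61.1%), from RIMS1, RIMS2, SNAP91 and 3 further hosts. The SNAP91 circRNA, from a clathrin assembly gene, had 0.0510, 1.01, 2.62, 1.01, 0.495 and 0.407 RPM, 2.58-fold (1.60 to 4.25) above E80. In this list the host FPKM was highest at E60 for 8 of 10 members, 5 of them the RIMS1 circRNAs, which share 1 host value. SNAP91 host FPKM was 3.09, 43.5, 90.9, 50.7, 68.3 and 68.9. Among chromatin regulators 21 of 40 circRNAs peaked at E60 (52.5%), and 5 of the 21 host values were highest there. HDAC2 and MORC3 lead this list, and a further MORC3 circRNA, of 2893 bp, gave 0.170, 1.57, 2.62, 0.826, 0.247 and 0.278 RPM, 1.66-fold (1.09 to 2.54) above E42.

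Of circRNAs from cell cycle, centrosome and mitosis genes 8 of 20 peaked at E60 (40%), and their sum at E60, 29.9 RPM, was mostly that of CSPP1 and TLK1. RNA binding and splicing genes gave 20 of 42 (47.6%). Their median ratio of E60 over the next stage was 2.11, and the host FPKM was highest at E60 for 1 of 20. XRN1, an exonuclease, gave 25 reads at E60 and 10 at E42, a ratio of 3.12 (1.45 to 7.27), with LARP4B given above. SCAF11, a splicing factor, and SRPK2, a kinase of splicing factors, had ratios of 1.41 (0.664 to 3.04) and 1.93 (0.780 to 5.07), both within counting error. Axon guidance, adhesion and migration genes gave 6 of 14 (42.9%), led by EPHA3 at 3.26-fold (1.68 to 6.73) over E42. The adhesion protein CHL1, of this list, had 6 reads at E60 and 7 at E42, a ratio of 1.07 (0.297 to 3.71).

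Members were also counted among signalling, turnover and transport genes. Wnt, TGF-beta and BMP signalling genes gave 8 of 15 (53.3%). The Wnt co-receptor LRP6 stood at 2.96-fold (1.24 to 7.82) over E42, with 19 reads at E60 and 8 at E42. The receptor BMPR2 stood at 1.55-fold (0.923 to 2.62) and the transcription factors ZEB1 and NFATC3 at 1.14-fold (0.644 to 1.97) and 1.25-fold (0.438 to 3.54), within counting error. For none of the 7 single hosts of this list was FPKM highest at E60. Ubiquitin pathway genes gave 16 of 24 (66.7%), among them RNF138 at 1.71-fold (1.14 to 2.60), the ligase MARCH6 at 1.89-fold (1.19 to 3.03) and the SUMO protease SENP7 at 1.87-fold (1.11 to 3.20). Kinases and phosphatases gave 18 of 29 (62.1%), with the Mediator kinase CDK8 at 1.83-fold (0.906 to 3.79) beside TLK1. Vesicle trafficking and motor genes gave 12 of 23 (52.2%). Among them the circRNA over BBS9 and ENSSSCG00000016667 had 23 reads at E60 and 10 at E100, 5.21-fold (2.39 to 12.3), while SEC24B, SNX14 and KLC1 stood at 2.22-fold (0.922 to 5.69), 1.12-fold (0.422 to 2.71) and 2.83-fold (1.01 to 8.26). Median ratios in the 9 lists lay between 1.56 and 2.11, against 1.72 over all members.

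In the table of 5 regions, 321 of the 419 circRNAs were listed with reads that add up, 39 were listed with reads that do not, and 59 (14.1%) were not listed. Of the other 384 circRNAs, 221 add up there, 29 do not, and 134 (34.9%) were not listed. The other regions held the 321 listed members at lower levels at E60. Their summed level was 315 RPM in E60 cortex, against 58.1 RPM in basal ganglia, 42.8 RPM in cerebellum, 22.5 RPM in hippocampus and 11.9 RPM in brain stem at E60. All 4 regions at E60 lay below E60 cortex for 312 of 321. The cortex value chose the members, so its margin is a description. At E60 the 221 other listed circRNAs, not chosen for an E60 peak, also summed highest in cortex, at 98.8 RPM against 54.8, 50.7, 25.8 and 14.2 RPM in the same regions. They too were chosen on reads of the forebrain and cortex series, so this margin is also a description. Libraries outside cortex had totals between 9.67 and 37.7 M reads, and a count of 0 allows between 0.0797 and 0.310 RPM in them.

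At E115 the summed level of the 321 circRNAs differed from that at E60 in both directions. It was 37.996 RPM at E115 against 11.9 RPM at E60 in brain stem, 120 RPM against 42.8 RPM in cerebellum, and 40.5 RPM against 22.5 RPM in hippocampus. In basal ganglia it was 43.2 RPM at E115 against 58.1 RPM at E60, and in cortex 45.9 RPM against 315 RPM. Log2 ratios were 1.68 (1.44 to 1.92), 1.49 (1.33 to 1.64), 0.85 (0.67 to 1.02), −0.43 (−0.61 to −0.25) and −2.78 in that order of regions. Outside cortex the other circRNAs had log2 ratios of 1.59, 1.08, 0.74 and −0.47. The members' share of circRNA reads stood between 26.9% and 34.5% in the 8 libraries outside cortex and at 30.8% in E115 cortex, against 45.9% in E60 cortex.

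**Figure D5:**
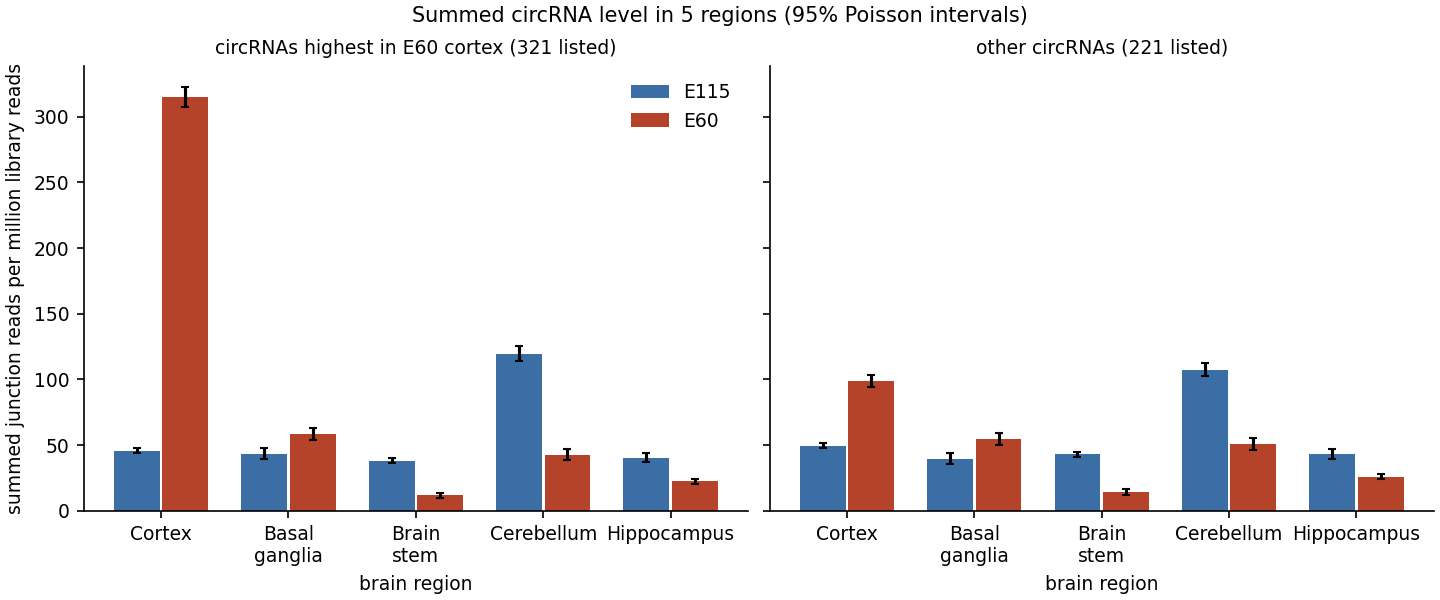
Summed junction reads per M library reads (y axis, from 0) are shown for 5 regions, with E115 in blue left of E60 in red and 95% Poisson intervals, for the 321 listed circRNAs highest in E60 cortex (left) and the 221 other listed circRNAs (right). On the left E60 cortex stands at 315 RPM and the next highest library, E115 cerebellum, at 120 RPM.

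Most of the circRNAs were seen somewhere outside cortex. With at least 2 reads as the limit of detection, cerebellum held 193 at E115 and 81 at E60, brain stem 173 at E115 and 27 at E60, basal ganglia 79 at E115 and 107 at E60, and hippocampus 79 at E115 and 93 at E60, of 321. Library totals differ between regions, so these counts do not rank the regions. At E115 73 members (22.7%) reached 2 reads in none of the 4 other regions, against 29 of the 221 others (13.1%). At E60 157 members (48.9%) and 80 others (36.2%) did so. In none of the 8 libraries outside cortex was a read found for 8 members (2.49%) and 4 others (1.81%). Of the 10 libraries, E60 cortex was the highest for 282 members and 81 others, and cerebellum at E115 for 24 and 63. A library outside cortex reached the E60 cortex level for 39 members, for 34 of them at E115.

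The circRNAs that were highest outside cortex were RIMS2, CSPP1, ZMYM4, NAA15 and PTGES3. RIMS2 had 10.5 RPM at E115 against 2.92 RPM at E60 in cerebellum, close to its 10.04 RPM in E60 cortex. ZMYM4 had 4.27 RPM at E115 against 0.583 RPM at E60 in cerebellum, above its 3.32 RPM in E60 cortex. NAA15 had 3.18 RPM at E115 and 0.778 RPM at E60 there, and PTGES3 had 2.80 RPM and 1.56 RPM. CSPP1 was highest outside cortex in basal ganglia, with 1.55 RPM at E115 against 5.55 RPM at E60. In cerebellum it too was higher at E115, at 3.31 RPM against 1.56 RPM. RIMS2, NAA15 and PTGES3 were likewise lower at E115 than at E60 in basal ganglia, whereas ZMYM4 was higher. By contrast, the EPHA3 circRNA, with 34 reads in E60 cortex, had 3 single reads in basal ganglia and cerebellum. HDAC2, at 14.5 RPM in E60 cortex, lay between 0.175 and 1.40 RPM in the 8 other libraries.

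E115 was compared with E60 over the 4 regions outside cortex, which the rule did not use, with edgeR's quasi-likelihood test, the region as a block and library totals as offsets. Of 165 circRNAs with at least 20 reads in these 8 libraries, 1 was called higher at E115 (0.606%) and 0 lower (0%), at a Benjamini-Hochberg adjusted p below 0.05. That 1, on SYN2, a synaptic vesicle protein, was no member. None of the 77 members tested was called. At an unadjusted p under 0.05 in edgeR's test, 8 of 77 members and 19 of 165 circRNAs (11.5%) passed. All 8 members, and 18 of the 19, were higher at E115. Fitted log2 changes were positive for 72 of 77 members and for 145 of all 165, with medians of 1.02 and 1.13. With TMM factors these medians were 0.28 and 0.34, and none of the members was called.

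The lowest adjusted p of a member was 0.106 in edgeR's test, shared by circRNAs of PHYHIPL, MLLT10 and FCHSD2. The PHYHIPL circRNA had 6, 28, 24 and 18 reads at E115 in basal ganglia, brain stem, cerebellum and hippocampus, against 3, 0, 3 and 5 reads at E60. Its log2 change was 2.66 ± 0.90 (SE, 4 regions). For edgeR the SE was derived as the absolute log2 change over the square root of the test's F statistic. The MLLT10 circRNA had 15, 22, 23 and 11 reads at E115 against 1, 1, 5 and 4 reads at E60 in the same regions, a log2 change of 2.60 ± 0.88 (SE). Reads were higher at E115 in all 4 regions for both. Without basal ganglia edgeR called 9 of 133 circRNAs (6.77%) and 3 of 62 members (4.84%). The 3 members lay on PHYHIPL (adjusted p = 0.0210), FCHSD2 (0.0266) and NDUFB9 (0.0313). The last 2 had at most 1 read at E60 in the 3 regions left.

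The host FPKM of the same regions was compared with limma on log2(FPKM + 1), with the region as a block, among 1734 hosts with a mean of at least 1 FPKM. Over the 4 pairs of headings 164 hosts were called higher at E115 (9.46%) and 23 lower (1.33%) at an adjusted p below 0.05. Of 254 hosts of members, 16 were higher and 2 lower. The 18 calls are 7.09% of these hosts, against 10.8% of all hosts tested. Without the columns headed hippocampus, 200 of 1725 hosts were higher (11.6%) and 22 lower (1.28%), and of 253 hosts of members 21 were higher and 1 lower. Of the 18 hosts of members called before, 16 remained called. Of the 2 lost, EPHA3 had 5.52 FPKM at E115 against 154 FPKM at E60 under the hippocampus heading. Without them its log2 change was −1.02 ± 0.46 (SE) with a limma adjusted p of 0.127, against −1.91 with them. The other was PLCB1, a phospholipase, at 1.26 ± 0.51 (SE) and a limma adjusted p of 0.0833. The settings that follow start from the 4 pairs of headings. Leaving out brain stem left 2 hosts of members called (0.787%, against 1.15% of all hosts). Leaving out basal ganglia or cerebellum left 4 in each case (1.57%, against 3.05% and 4.47% of all hosts). With no minimum of FPKM limma called 2 of 255 hosts of members and 10 of 1802 hosts.

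The clearest of these hosts was OMG, the oligodendrocyte myelin glycoprotein gene. Its FPKM was 136, 71.0 and 60.3 at E115 in basal ganglia, brain stem and cerebellum, against 19.9, 8.27 and 10.9 at E60. The log2 change without the hippocampus headings was 2.68 ± 0.54 (SE), with a limma adjusted p of 5.06e-05. OMG passed in each setting run, with adjusted p up to 0.0315 in limma. ROCK2, a kinase of the actin cytoskeleton, changed by 1.88 ± 0.44 (SE; limma adjusted p = 0.000793) and MAPK10, a neuronal stress kinase, by 1.87 ± 0.49 (SE; limma adjusted p = 0.00395). Both were higher at E115 in each of the 3 regions. With the 4 headings their log2 changes were 1.78 and 1.69 (limma adjusted p = 0.000351 and 0.00210). The other settings vary that fit and keep the columns headed hippocampus. In them these 2 calls were lost with no minimum of FPKM (limma adjusted p = 0.0783 for both). They were also lost without brain stem (0.0564 for ROCK2 and 0.0613 for MAPK10), and MAPK10 also without cerebellum (0.116). ANKRD6 was the 1 host of a member called lower, at −1.29 ± 0.41 (SE; limma adjusted p = 0.0227). With the columns headed hippocampus kept, it did not pass in limma without basal ganglia, brain stem or cerebellum (adjusted p between 0.0790 and 0.144). The ubiquitin ligase RNF13 had a log2 change of 2.37 without the hippocampus headings and of 1.49 with them, higher at E115 in 3 of 4 pairs of columns. With those columns kept, its log2 change was 0.99 without basal ganglia (limma adjusted p = 0.504). RNF13 then passed neither without brain stem or cerebellum nor with no minimum of FPKM (limma adjusted p between 0.181 and 0.423).

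By list, calls are set against 9.46% of all hosts higher and 1.33% lower in limma with the 4 headings, and 11.6% and 1.28% without the hippocampus headings. Of synapse and active zone hosts 5 of 24 were called higher at E115 with the 4 headings (20.8%) and 7 of 24 without hippocampus (29.2%). Vesicle trafficking and motor hosts had 6 of 34 (17.6%) and 5 of 34 (14.7%). Kinases and phosphatases, with 5 of 48 (10.4%) and 7 of 48 (14.6%), and ubiquitin pathway hosts, with 4 of 38 (10.5%) and 5 of 38 (13.2%), stood near the share of all hosts. None of these 4 lists had a host called lower in either fit. Axon guidance, adhesion and migration hosts had 2 of 29 higher in both fits, with 2 lower with the 4 headings and 1 lower without hippocampus. Chromatin regulators, with 41 tested, and cell cycle hosts, with 34, each had 1 lower with the 4 headings and 0 lower without hippocampus, where 1 of 35 cell cycle hosts was higher. RNA binding hosts, with 35 tested, and Wnt, TGF-beta and BMP hosts, with 14, had no call in either fit. Of the 5 synapse hosts of members, 0 were called with the 4 headings and 1 without hippocampus. Their median log2 change was 0.81 with the 4 headings, against 0.34 over all hosts, and 0.99 without hippocampus, against 0.52 over all hosts.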

How the data were processed

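Groups were taken from the labels, with 1 library in each of 14 groups, and columns were matched to libraries by their headings. The authors deposited whole-number counts of backsplice junction reads, per the file headers, beside RPM that the authors computed and listed at 0 for 1 read. Deposited FPKM values of host genes stand in the same tables, and the submitters' processing notes name Trim Galore, TopHat2, Cufflinks and Cuffdiff with the build Sscrofa10.2. No circRNA caller is given in the sources used here. Both tables were normalized separately. Each library's total was recovered as the median of reads over RPM, and levels were recomputed from the counts so that 1 read is not 0. Every value column was matched to a library.

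The members, gene lists and tests were chosen with earlier results of these data known. Genes were named by fixed rules: the 15 members with most reads, the 8 sharpest with at least 50 reads, hosts with at least 4 members, 3 circRNAs on either side of the limit, the 5 highest outside cortex, up to 4 per gene list, and the 5 hosts with the largest rise and fall of FPKM at E60. SYN2 and single hosts of the regional FPKM test were named after their values were seen. Some items that these rules pick are not reported here. Ratios of RPM add no reads except in medians over E42 and E80, which add 0.5 reads. Intervals are exact Poisson, conditional binomial or Clopper-Pearson at 95%, and cover counting error only. They treat each junction read as a separate observation and are too narrow where reads are copies. The deposited number of unique junction reads over all libraries was not used for them. It was lower than the total, at 384 of 1036 for the CSPP1 circRNA and 319 of 843 for the HDAC2 circRNA. edgeR 4.0.16 and limma 3.58.1 were also run on simulated data. The outcome is not reported here, so these runs support none of the results. Other settings used DESeq2 1.42.0, TMM factors, other read minimums, other pseudocounts and each region left out in turn. With 1 library behind each region and stage, p-values measure the spread between regions. R 4.3.3 and Python 3.11.15 were used.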

Additional observations from a re-analysis of the deposited data

Results flagged for a closer look

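The summed level of the 321 listed circRNAs moved one way between E115 and E60 in 3 regions and the other way in basal ganglia. The log2 ratio of E115 over E60 was 1.68 in brain stem, 1.49 in cerebellum and 0.85 in hippocampus, and −0.43 in basal ganglia. The difference between regions was not tested, since each region has 1 library for each stage. The 221 other listed circRNAs moved the same ways, at 1.59, 1.08, 0.74 and −0.47.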

How the results depend on the processing

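The number of circRNAs peaking at E60 was 758 of 1530 with at least 10 reads and 142 of 311 with at least 50 reads, 184 of 803 with libraries scaled to their circRNA reads, and 212 with TMM factors. Leaving out another stage, an alternative added after seeing the data, gave between 351 and 437. On the scale of circRNA reads, 25 circRNAs stood above the next stage beyond counting error, and the members' median log2 level of E60 over E42 was 0.59 and over E80 0.74. With 1 read added, the median over E80 was 2.05. The members' median span was 4667.5 bp on that scale and 5493 bp with TMM factors, and that of the other circRNAs 16249 and 16465 bp, and 15299.5 and 25794 bp with at least 10 and at least 50 reads; members stayed the shorter in each (settings chosen after seeing the data). Hosts highest at E60 numbered 48 of 302 hosts counted once, and 40 of 166 on the scale of circRNA reads. With 1 read as the limit, detection at E115 and E60 stood at 128 and 194 members in basal ganglia and 143 and 152 in hippocampus, and at E60 at 156 in cerebellum and 78 in brain stem, or 41 in brain stem over all lines. Over all lines, an added alternative, summed log2 ratios of E115 over E60 were 1.05 in brain stem, 1.26 in cerebellum and 1.04 in hippocampus.

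In the circRNA test 2 were called with TMM factors and 2 with DESeq2, where the members' median log2 change was 0.28 and 0.32. edgeR called 0 of 841 with at least 5 reads (32 at an unadjusted p under 0.05) and 0 of 197 over all lines (19 at an unadjusted p under 0.05). Leaving out each region in turn, edgeR gave between 0 and 9 calls, 0 to 3 of them members, and medians between 0.72 and 1.39. For host FPKM limma called 10 with no minimum, 2 of them hosts of members, against 187 and 18; without 1 region there were between 20 and 222 calls, 2 to 22 for hosts of members, and medians between 0.038 and 0.59. The cause was not tested. By replicate number, no paired analysis was possible because each group has 1 library; E115 and E60 were paired by region in the fits above. Depth also limits single circRNAs, since the lower quartile of the members' reads at E60 was 7.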

Other observations

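On chromosome 1 lay 62 of the 419 members against 58 of the other 384 circRNAs, on chromosome 13 48 against 40, and on chromosome X 7 against 5. After E60, 210 of the 419 members were higher at E100 than at E80, against 175 of the other 384. Of the 15 members with no listed host, the most abundant after the one on chromosome 7 was a circRNA of 293 bp at chr3:50658315-50658607 with 135 reads.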
